A study of Homo sapiens with 6 samples.

Results

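Accessible chromatin was examined at the loci of 7 genes that are active in pluripotent stem cells: POU5F1, NANOG, SOX2, LIN28A, DPPA4, TDGF1 and DNMT3B. A peak was counted at a locus when its midpoint lay in a fixed window around the gene, given below in megabases of hg19. The windows held 177 of the 478912 peaks in 6 peak lists, and these 177 peaks merged into 48 of 157560 distinct regions. ATAC-seq uses the Tn5 transposase to cut and tag open chromatin, and a peak is a stretch where the tagged fragments pile up. The libraries came from H9, an established line of human embryonic stem cells, differentiated with a kit for ventricular cardiomyocytes and collected at day 15. There were 3 control libraries and 3 libraries with knockdown of ZNF436, a zinc finger gene, and each library was an independent differentiation of the same 1 cell line. All 6 shared the cell line, the differentiation and the day of collection, and for the method of the knockdown nothing is given in the sources used here. At these loci the question was whether accessibility left over from the stem cell state differed between control and knockdown cells.

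The lists differed greatly in length, and this bears on every count below. Control lists held 50719, 53662 and 68342 peaks and knockdown lists held 115864, 102454 and 87871, so the groups did not overlap (57574 ± 9440 against 102063 ± 14001, SD, n = 3; ratio 1.77, two-sided exact permutation test p = 0.1). With 3 libraries against 3, p = 0.1 is the smallest value an exact permutation test can give. The read depth of the libraries is unknown from the peak lists, so longer lists from deeper sequencing and longer lists from more open chromatin cannot be told apart. In bulk libraries, fewer cells of a type and less accessibility per cell cannot be told apart either. As a check of the labelled cell type, 7 windows at cardiomyocyte genes held 37, 38 and 72 peaks in the controls and 95, 84 and 84 in the knockdowns, or 11.6 to 29.7 peaks per 100 kb. Control replicate 3 stood apart from the other controls there, nearer to the knockdowns. The myosin genes MYH6 and MYH7 had the most peaks, 12, 13 and 27 against 27, 32 and 25, and PLN, which encodes phospholamban, had the fewest, 0, 0 and 1 against 2, 1 and 2.

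POU5F1 (OCT4), NANOG and SOX2 encode transcription factors that bind one another's regulatory regions and hold stem cells in the pluripotent state. LIN28A, an RNA-binding protein that blocks maturation of let-7 microRNAs, DPPA4, a chromatin-associated protein of early embryonic cells, TDGF1 (Cripto), a co-receptor for Nodal, and DNMT3B, a de novo DNA methyltransferase, are expressed with them. Most of these genes are silenced as cells differentiate into heart muscle, whereas SOX2 stays on in neural lineages.

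Promoter sequences are shown for 3 members, because they carry the letters by which OCT4 and SOX2 are known to read DNA and span the range from CG-poor to CG-rich. They are the 250 bases before the start of the gene in RefSeq on GRCh38.p14, read 5′ to 3′ on the gene's strand. Capitals mark the motifs ATGCAAA and TGCAAAT (octamer variants, which share the letters TGCAAA) and ACAATGG (SOX), searched on both strands. NANOG lies at chr12:7789152-7789401 on the plus strand, SOX2 at chr3:181711675-181711924 on the plus strand and DPPA4 at chr3:109337547-109337796 on the minus strand.
NANOG: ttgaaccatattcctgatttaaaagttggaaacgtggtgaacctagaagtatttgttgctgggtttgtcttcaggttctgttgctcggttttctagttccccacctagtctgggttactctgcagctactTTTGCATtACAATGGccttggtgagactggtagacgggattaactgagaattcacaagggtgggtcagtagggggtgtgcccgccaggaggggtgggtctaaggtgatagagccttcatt
SOX2: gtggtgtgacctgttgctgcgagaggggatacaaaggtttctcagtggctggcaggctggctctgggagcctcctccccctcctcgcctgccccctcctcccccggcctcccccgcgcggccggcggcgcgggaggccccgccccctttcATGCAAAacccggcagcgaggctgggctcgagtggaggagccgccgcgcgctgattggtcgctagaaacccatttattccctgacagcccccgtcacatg
DPPA4: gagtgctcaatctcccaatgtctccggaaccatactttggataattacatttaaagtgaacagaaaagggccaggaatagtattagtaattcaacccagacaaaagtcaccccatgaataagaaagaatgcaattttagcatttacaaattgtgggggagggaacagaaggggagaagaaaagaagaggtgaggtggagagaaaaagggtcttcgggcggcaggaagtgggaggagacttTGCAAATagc
The NANOG stretch holds an octamer match, on the minus strand, 1 base away from a SOX match, and the SOX2 and DPPA4 stretches hold 1 octamer match each. ATGCAAA was found in 3.94% of 35116 promoters of the same length, TGCAAAT in 3.67% and ACAATGG in 2.62%. The stretches hold 4 CG pairs for NANOG, 20 for SOX2 and 3 for DPPA4, against a median of 11. RefSeq entries were matched for 5 of the 7 members. The DNMT3B entry, at chr20:32779602-32779851 on the plus strand, holds 3 CG pairs and none of the motifs. Whether that entry is the gene's main start was not checked, so its CG count may not be that of the main promoter. The 2 entries for TDGF1, listed as CRIPTO, hold 2 and 9 CG pairs, the latter with a SOX match. These positions are on another genome build than the peaks, so no peak was placed on a promoter.

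The 7 loci together held more peaks in every knockdown library than in any control, in about the measure by which the whole lists were longer. Control replicates 1 to 3 had 21, 24 and 23 peaks (22.7 ± 1.53, SD, n = 3) and knockdown replicates 1 to 3 had 41, 36 and 32 (36.3 ± 4.51). The groups did not overlap, and the ratio was 1.60 (two-sided exact permutation test, p = 0.1). Per 10000 peaks of the list, the loci held 4.14, 4.47 and 3.37 peaks in the controls and 3.54, 3.51 and 3.64 in the knockdowns. These shares overlapped between groups (3.99 ± 0.568 against 3.56 ± 0.068; ratio 0.893, exact permutation test p = 0.4). When each list was reduced to its 50719 best-scoring peaks, the length of the shortest, the loci held 21, 22 and 17 peaks in the controls and 19, 19 and 20 in the knockdowns. The difference in count was then gone (20 ± 2.65 against 19.3 ± 0.577; ratio 0.967, exact permutation test p = 0.9). That reduction kept 43.8% to 57.7% of a knockdown list and 74.2% to 100% of a control list.

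**Figure D1:**
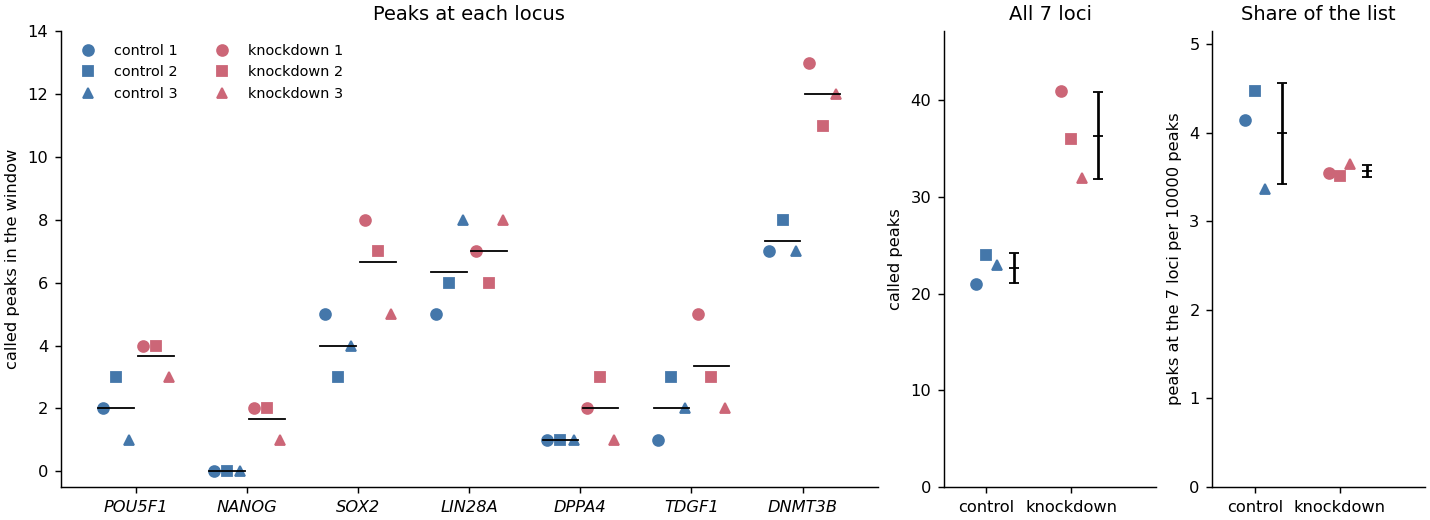
Peaks per library at each of the 7 loci (left, lines at the mean), summed over them (middle) and per 10000 peaks of the list (right, both with bars for the mean ± SD, n = 3); controls are blue, knockdowns red, and circles, squares and triangles are replicates 1, 2 and 3. NANOG and DNMT3B are the loci where all knockdown libraries lie above all controls; at NANOG the controls are at 0.

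The peaks at these loci also covered more bases in the knockdown libraries. Covered length was 9186, 8078 and 8729 bases in the controls and 18242, 14952 and 13867 in the knockdowns (8664 ± 557 against 15687 ± 2278, SD, n = 3; ratio 1.81, exact permutation test p = 0.1). As a share of all bases called in the list, it was 0.0424%, 0.0366% and 0.0319% in the controls and 0.0369%, 0.0343% and 0.0359% in the knockdowns, and the groups overlapped (exact permutation test p = 0.8). On lists of equal length the ratio of covered bases was 1.27 (exact permutation test p = 0.1), and the share of all called bases was not taken there. Peak strength was compared as the score percentile, the place of a peak's score in its own list, where 100 is the strongest. The median percentile of peaks at the loci was 51.9, 45.3 and 45.6 in the controls and 52.0, 54.1 and 56.2 in the knockdowns. It was 6.48 points higher in the knockdowns, without overlap (exact permutation test p = 0.1), but on lists of equal length the difference was -9.63 points. In both groups the peaks at these loci thus stood near the middle of their lists.

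The loci held both regions present in all libraries and regions called in only some. Of the 48 regions, 14 (29.2%) were called in all 6 libraries, against 18.2% of all regions in the series. A further 5 (10.4%) were called in all 3 knockdown libraries and no control, where the background over all regions was 7.72%, and 0 were called in all 3 controls and no knockdown, where the background was 0.131%. At least 1 control had a peak in 27 regions (56.2%) and at least 1 knockdown in 45 (93.8%), near the 52.3% and 89.3% of all regions. There were 13 regions (27.1%) that rested on 1 library, 10 of them on a knockdown and 3 on a control, against 38.3% of all regions. On lists of equal length 0 regions were called only in the 3 knockdowns and 1, at DPPA4, only in the 3 controls, where 3.067% and 1.3% of all 85585 regions were. Without knockdown replicate 3, the shortest knockdown list, the count of knockdown-only regions rose from 5 to 11, and the share over all regions was not taken in that setting. With all libraries, 11 of the 48 regions had no control and at least 2 knockdowns, against 30254 of all 157560 regions.

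**Figure D2:**
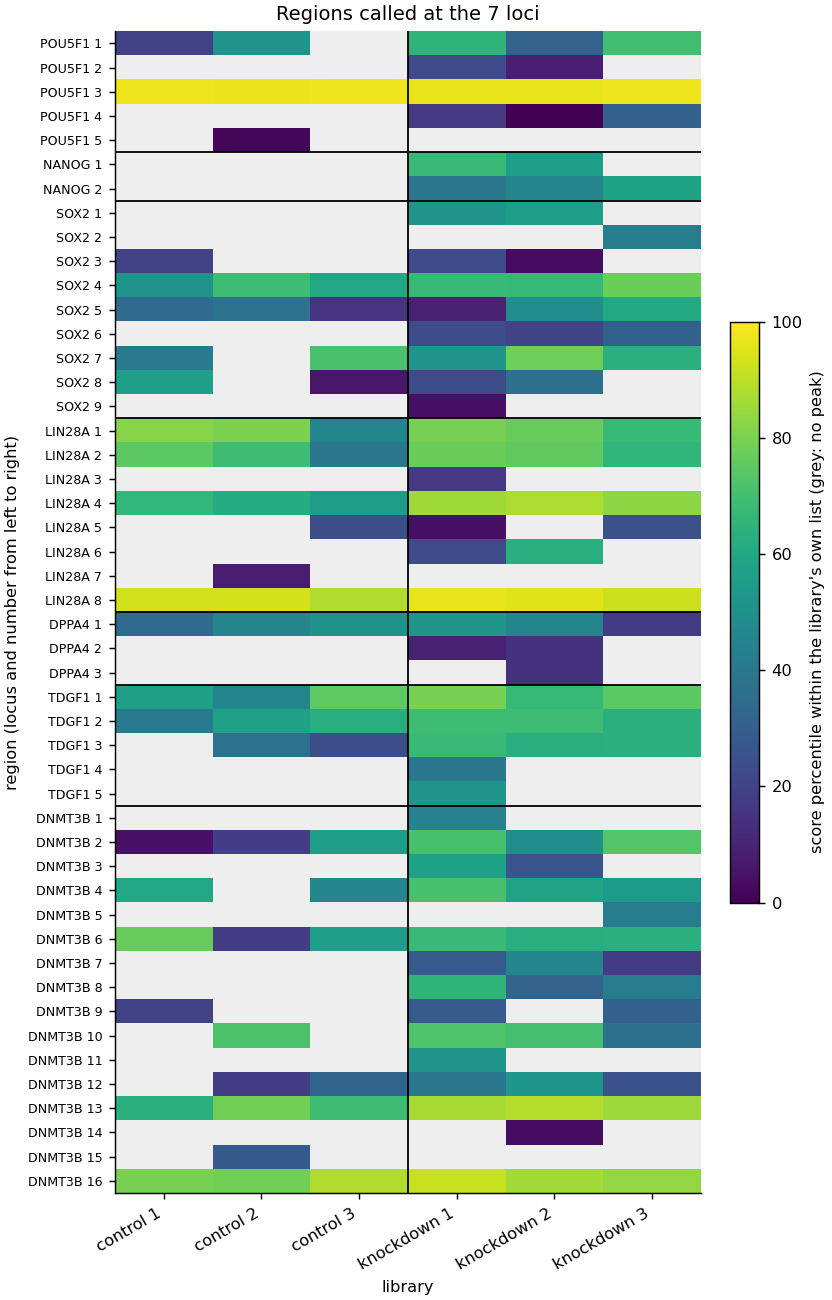
Score percentile (0 to 100, colour) of each of the 48 regions (rows, by locus) in the 6 libraries (columns); grey marks no peak. The knockdown columns hold more called regions than the control columns, and the 14 regions filled across the row are those called in all 6 libraries.

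The window around POU5F1, the core pluripotency factor, had 1 strong region, called in every library near the top of its list. In the window at chr6, 31.11 to 31.16 Mb, the controls had 2, 3 and 1 peaks and the knockdowns 4, 4 and 3, so the groups overlapped at 3. The region at chr6:31125936-31126749 was called in all 6 libraries at score percentiles of 97.4, 96.9 and 97.5 in the controls and 96.7, 96.3 and 97.6 in the knockdowns (exact permutation test p = 0.4), and a rank so near its ceiling can show little difference. It was the strongest of the regions called in all 6 libraries at the 7 loci. The window also covers ground next to TCF19 and CCHCR1, and no hg19 annotation was used to say which gene's start the region lies on. The strong region therefore cannot be taken as an open site of POU5F1 itself. The region at chr6:31126919-31127429 was called only in the knockdowns, at percentiles of 16.6, 0.615 and 31.2, which are low in each list. Adjusted for list length, the POU5F1 window changed by -0.02 (log2, SE 0.36; limma adjusted p = 0.982).

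NANOG, which stabilises the pluripotent network, was the 1 locus without any peak in the controls. In the window at chr12, 7.92 to 7.97 Mb, the controls had 0, 0 and 0 peaks and the knockdowns 2, 2 and 1. The region at chr12:7959550-7959731 was called in the 3 knockdowns at percentiles of 39.8, 45.7 and 57.9, over 129, 154 and 159 bases. The region at chr12:7950349-7950611 was called in knockdown replicates 1 and 2, at 67.2 and 55.6. Both are narrow and of middling score, and the window lies beside NANOGNB and SLC2A14. Counts that did not overlap in this direction were found in 19.1% of the 27891 windows with at least 1 peak and a mean under 2 peaks. Windows with fewer than 3 peaks over all libraries cannot show this pattern but are counted in such shares. The shares are thus lower than among windows that can. On lists of equal length NANOG had 0 peaks in each control and 1 in each knockdown; 5.61% of windows under that minimum were higher without overlap on those lists. Those peaks were not at 1 site: 2 knockdowns had the region at chr12:7950349-7950611 and 1 had that at chr12:7959550-7959708. A control without a peak may hold signal under the authors' calling limit or none, which the peak lists cannot tell apart. The locus had too few peaks for the window fit.

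SOX2 had its constant regions near the middle of its window. In the window at chr3, 181.38 to 181.48 Mb, the controls had 5, 3 and 4 peaks and the knockdowns 8, 7 and 5, overlapping at 5. The region at chr3:181428852-181429879 was called in all 6 libraries at percentiles of 51.9, 69.1 and 59.7 in the controls and 67.2, 67.1 and 77.5 in the knockdowns (exact permutation test p = 0.3). The neighbouring region at chr3:181430170-181431058 ranged from 14.9 to 37.5 in the controls and from 10.1 to 60.8 in the knockdowns, again with overlap. A weaker region at chr3:181444374-181444769 was called only in the knockdowns, at 23.2, 20.5 and 31.2. Adjusted for list length, the SOX2 window changed by -0.16 (log2, SE 0.25; limma adjusted p = 0.719).

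**Figure D3:**
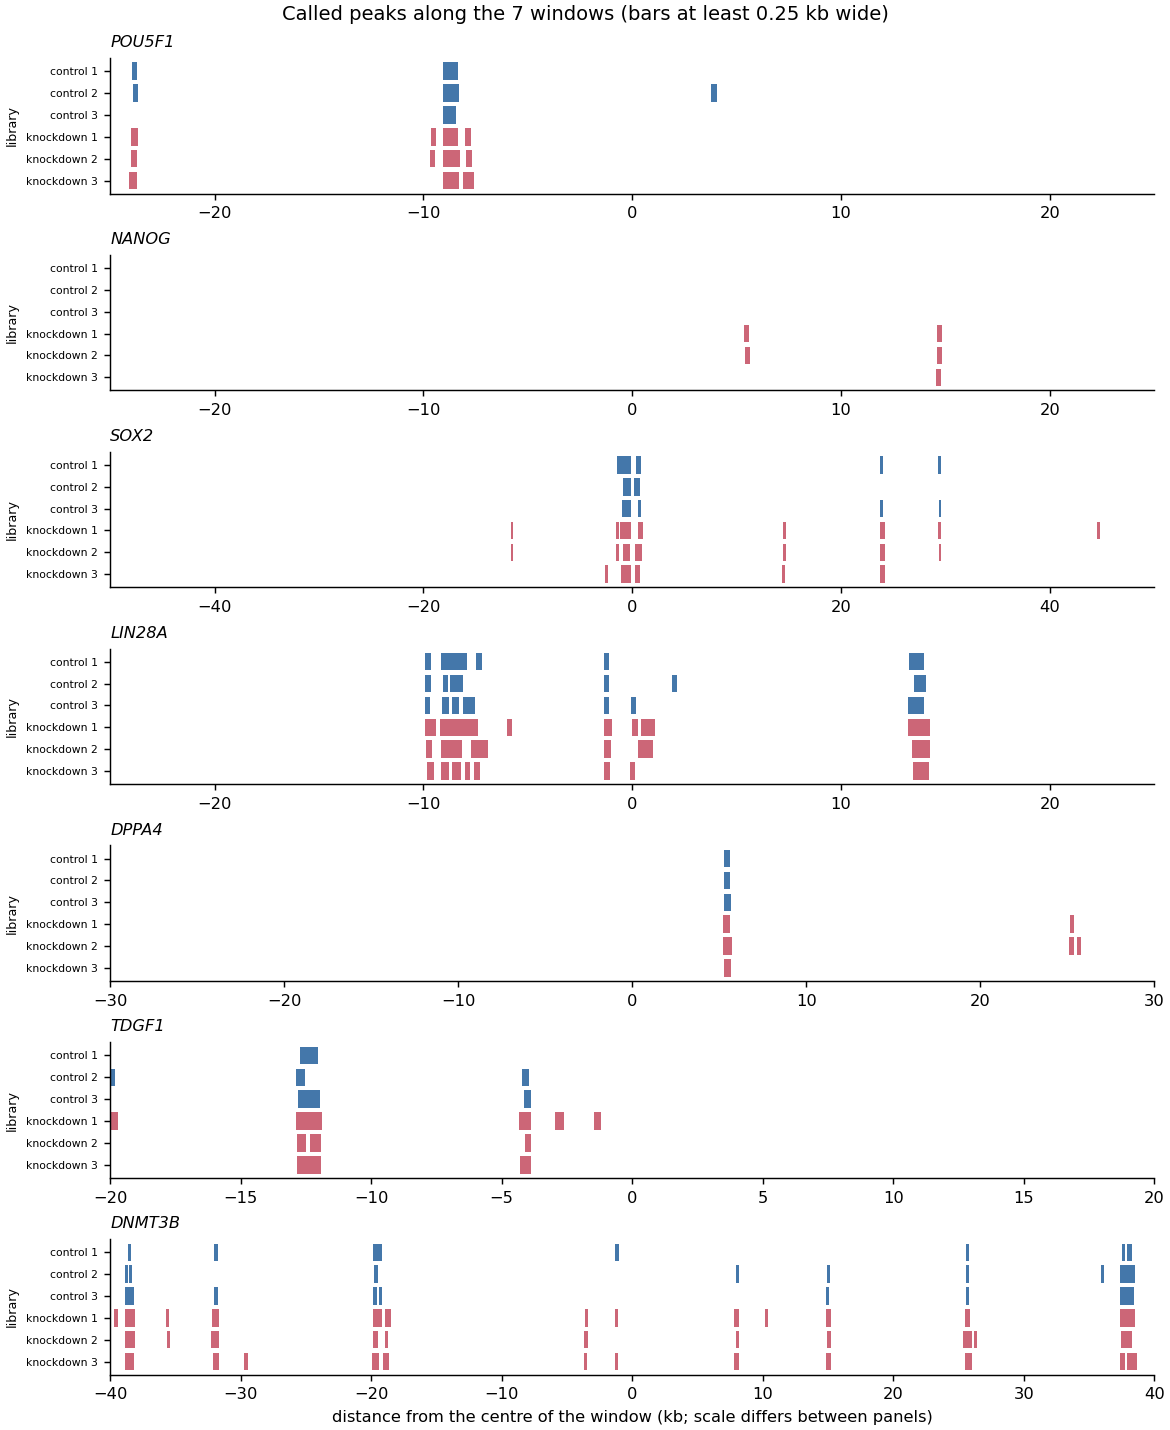
Peaks of each library along the 7 windows, as bars at their distance from the window centre in kb, with controls in blue and knockdowns in red; bars are drawn at least 0.25 kb long so that narrow peaks can be seen. At POU5F1 and LIN28A the same positions recur down all 6 rows, and at NANOG the control rows are empty.

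LIN28A had about as many peaks in the controls as in the knockdowns, although the knockdown lists were longer. In the window at chr1, 26.72 to 26.77 Mb, the controls had 5, 6 and 8 peaks and the knockdowns 7, 6 and 8. As a share of each list LIN28A was lower in every knockdown than in any control, a pattern shown by 19.5% of the windows tested. Adjusted for list length it changed by -0.68 (log2, SE 0.23), the largest change of the 5 members tested, with an unadjusted p of 0.00881 and a limma adjusted p of 0.0781. With a pseudocount of 1 in place of 0.5 the change was -0.69 and passed the threshold (limma adjusted p = 0.0401), but the share of all windows called lower then rose from 5.67% to 12.3%. The change was -0.46 with median ratio scaling, -0.35 on lists of equal length and -0.45 in the stronger 50% of each list. It was not called there (limma adjusted p = 0.229, 0.275 and 0.262). Without scaling the sign turned, to 0.15 (limma adjusted p = 0.635).

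At LIN28A 4 regions were called in all 6 libraries, and none stood lower in every knockdown than in every control. The region at chr1:26743635-26744050 stood at percentiles of 66.2, 61.9 and 55.7 in the controls and 85.6, 87.6 and 82.9 in the knockdowns, without overlap (exact permutation test p = 0.1). It also covered more bases, 190, 141 and 235 in the controls against 416, 333 and 295 in the knockdowns. The strong region at chr1:26758218-26759272 stood at 93.1, 93.7 and 87.9 in the controls and 96.2, 95.0 and 92.5 in the knockdowns, which overlapped. The regions at chr1:26735063-26735593 and chr1:26735816-26738090 overlapped too in percentile, from 39.5 to 81.9 in the controls and from 65.7 to 79.4 in the knockdowns. DHDDS and ZNF683 neighbour LIN28A, and the regions were not assigned to any of these genes.

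DPPA4, on chr3 at 109.02 to 109.08 Mb, had few called peaks in both groups. It had 1 peak in each control and 2, 3 and 1 in the knockdowns. The peak of all 6 libraries was at chr3:109055229-109055747, at percentiles of 34.9, 45.3 and 51.0 in the controls and 52.0, 45.7 and 17.8 in the knockdowns (exact permutation test p = 0.9). On lists of equal length this peak was kept in the 3 controls and in 0 knockdowns, a direction without overlap found in 1.88% of windows under the mean of 2 peaks on those lists. That share also counts windows with too few peaks to separate the groups. The direction at DPPA4 on equal lists was thus opposite to that at NANOG.

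TDGF1, the Nodal co-receptor, had 1, 3 and 2 peaks in the controls and 5, 3 and 2 in the knockdowns, in the window at chr3, 46.60 to 46.64 Mb, and the groups overlapped. The region at chr3:46607113-46608116 stood at 41.4, 57.4 and 63.2 in the controls and 69.1, 68.9 and 63.4 in the knockdowns, so the groups nearly met, at 63.2 and 63.4. Another region, at chr3:46599702-46600293, was called in all 6 libraries but straddles the window's edge. Its peak thus counted at the locus only in control replicate 2 and knockdown replicate 1. The region at chr3:46615656-46616140 was called in control replicates 2 and 3, at 37.5 and 24.0, and in the knockdowns at 67.2, 63.1 and 63.4. On lists of equal length it was called in 1 control and 3 knockdowns. LRRC2 and FAM240A neighbour TDGF1, and the regions were not assigned to any of these genes. Adjusted for list length the TDGF1 window changed by -0.20 (log2, SE 0.34; limma adjusted p = 0.728).

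DNMT3B held the most peaks of the 7 loci, 7, 8 and 7 in the controls and 13, 11 and 12 in the knockdowns, in the window at chr20, 31.33 to 31.41 Mb. All knockdowns lay above all controls; groups did not overlap in this direction in 33.4% of the windows tested. Adjusted for list length DNMT3B changed by -0.16 (log2, SE 0.21; limma adjusted p = 0.649), and on lists of equal length it had 7, 8 and 6 peaks against 8, 6 and 7. Without any scaling for list length the sign turned, to 0.67 (limma adjusted p = 0.0355), as the median of all windows moved from -0.19 to 0.64.

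Of the 4 regions at DNMT3B called in all 6 libraries, 1 had percentiles that did not overlap between groups, a pattern held by 45.3% of such regions in the series. The region at chr20:31395357-31396027 stood at percentiles of 63.3, 78.5 and 68.9 in the controls and 86.7, 89.0 and 85.3 in the knockdowns (exact permutation test p = 0.1). It covered 242, 284 and 269 bases in the controls and 423, 671 and 497 in the knockdowns. The region at chr20:31407352-31408664 overlapped between groups, at 79.4, 78.5 and 87.9 in the controls and 91.5, 86.0 and 83.8 in the knockdowns. At chr20:31331106-31331924 the percentile ranged from 4.71 to 55.7 in the controls and from 49.3 to 73.2 in the knockdowns, and at chr20:31350086-31350861 from 18.1 to 76.6 and from 63.1 to 67.2. The regions at chr20:31350908-31351496 and chr20:31366308-31366513 were called only in the knockdowns, the former at 29.3, 45.7 and 17.8 and the latter at 65.2, 31.9 and 42.3. COMMD7 and MAPRE1 neighbour DNMT3B, and the regions in the window were not assigned to any of these genes.

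Over the 14 regions called in all 6 libraries, the knockdown percentiles lay above all controls in 3 (at LIN28A, TDGF1 and DNMT3B) and below in 0. Over all such regions of the series, 45.3% lay above and 2.27% below, and the median difference was 9.41 points. Called bases did not overlap, with the knockdowns wider, in 4 of the 14, against 47.2% of all. The higher rank in the knockdowns was thus no more frequent in these 14 regions than in the series, and no test was made of that difference.

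The fit over windows compares each locus with the genome after scaling for list length. It was made on 14433 windows with a mean of at least 2 peaks, of which 0.824% were called higher and 5.67% lower in the knockdowns at a limma adjusted p under 0.05. Among the 5 members with enough peaks, 0 were higher and 0 lower, and 1, LIN28A, had an unadjusted p under 0.05. NANOG and DPPA4 were under the minimum. The members' median change was -0.16 (log2) against -0.19 over all windows, and relative to the latter POU5F1 stood at 0.17, SOX2 and DNMT3B at 0.04, TDGF1 at -0.01 and LIN28A at -0.49. By list share alone, LIN28A was lower in the knockdowns without overlap and 0 of the 5 tested members were higher, against 11.2% of the windows tested. NANOG, under the minimum, was higher by share without overlap, as were 15.0% of 27891 windows under the minimum, some of which had too few peaks to separate the groups. The calls over all windows moved with the scaling: 119 were higher and 819 lower in the main setting, 73 and 83 with median ratio scaling and 3179 and 30 without scaling. The 5 estimates have SEs of 0.21 to 0.36, and the change of -0.68 at LIN28A was not called, so changes well above 1 SE could be missed.

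**Figure D4:**
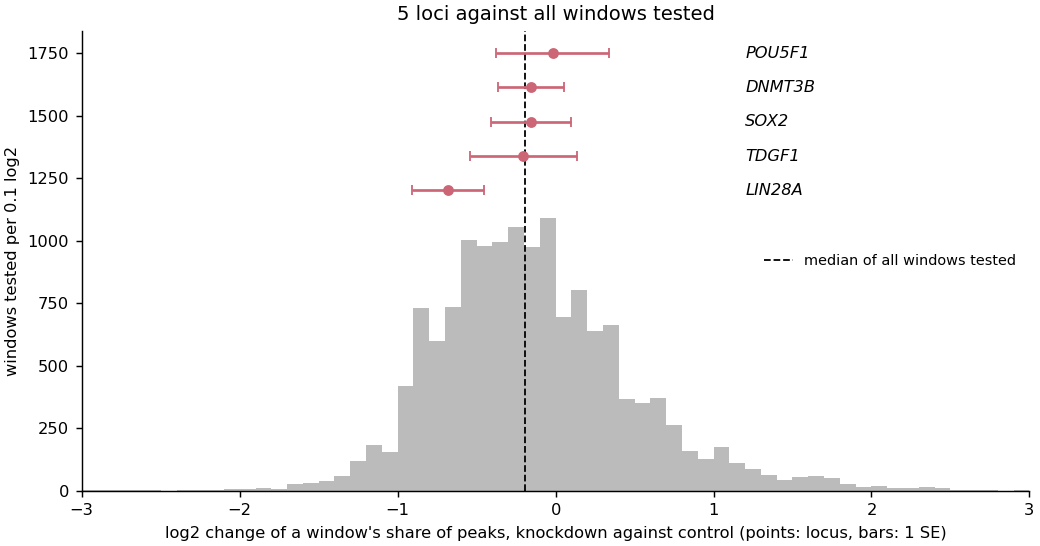
Change in the number of peaks per window after scaling for list length (log2, knockdown against control) for the 5 tested members, with bars of 1 SE, beside the distribution over all 14433 windows. The members lie from -0.68 (LIN28A) to -0.02 (POU5F1), around the median of -0.19.

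Other pluripotency genes, in 16 further windows, gave 0 higher and 1 lower among the 14 that could be tested, with a median of -0.10 (log2). Of all windows tested, 0.824% were called higher and 5.67% lower. Their peaks numbered 32, 37 and 56 in the controls and 79, 78 and 63 in the knockdowns. LEFTY1 and LEFTY2, Nodal inhibitors that share a window, had the most, with 3, 6 and 9 peaks in the controls and 11, 9 and 10 in the knockdowns. ZFP42 (REX1), a zinc finger gene used as a marker of undifferentiated cells, had 0 peaks in all 6 libraries, and L1TD1, an RNA-binding protein of stem cells, had 0, 0 and 1 against 1, 0 and 0. The window called lower was that of TERT, the catalytic subunit of telomerase, named after its values were seen: it had 2, 3 and 7 peaks in the controls and 2, 2 and 1 in the knockdowns (log2 change -1.76, SE 0.33; limma adjusted p = 0.0131). Groups overlapped in its counts but not in its list shares, which were lower in the knockdowns, as in 19.5% of the windows tested. Without scaling the change at TERT was -0.94 and did not pass.

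The 7 loci were more densely covered than the genome and less so than the cardiomyocyte windows. They held 4.88, 5.58 and 5.35 peaks per 100 kb in the controls and 9.53, 8.37 and 7.44 in the knockdowns. The whole genome held 1.66, 1.76 and 2.25 in the controls and 3.81, 3.37 and 2.89 in the knockdowns. For each cardiomyocyte peak there were 0.568, 0.632 and 0.319 peaks at the pluripotency loci in the controls and 0.432, 0.429 and 0.381 in the knockdowns (0.506 ± 0.165 against 0.414 ± 0.028, SD, n = 3; exact permutation test p = 0.4). Control replicate 3 was the lowest of the 6; without it the ratio of the groups moved from 0.817 to 0.690, and on lists of equal length it was 1.08. Summed by cell type, the windows of other cell types also held more peaks in every knockdown than in any control. PAX6 and SOX1 (neural) had 4, 3 and 5 peaks against 8, 9 and 8, and CDH5 and PECAM1 (endothelial) 4, 2 and 3 against 7, 5 and 5. FOXA2 and AFP (endoderm) had 0, 1 and 0 against 4, 2 and 2, and PTPRC and HBB (blood) 0, 0 and 0 against 2, 1 and 2. Taken singly, SOX1, CDH5, FOXA2 and HBB overlapped between groups, and PAX6, PECAM1, AFP and PTPRC did not. Counts were higher without overlap in 33.4% of the windows tested and 19.1% of those under the minimum. Mean peaks per 100 kb were 5.27 in the controls and 8.45 in the knockdowns at the 7 loci. They were 5.71 and 11.9 in the neural windows and 4.53 and 7.97 in the other pluripotency windows. Endothelial windows held 2.31 and 4.36, endoderm windows 0.476 and 3.81 and blood windows 0 and 0.980. A density above that of the genome was thus not particular to the 7 loci. The part of cells of other types in the counts at the 7 loci was not tested.

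**Figure D5:**
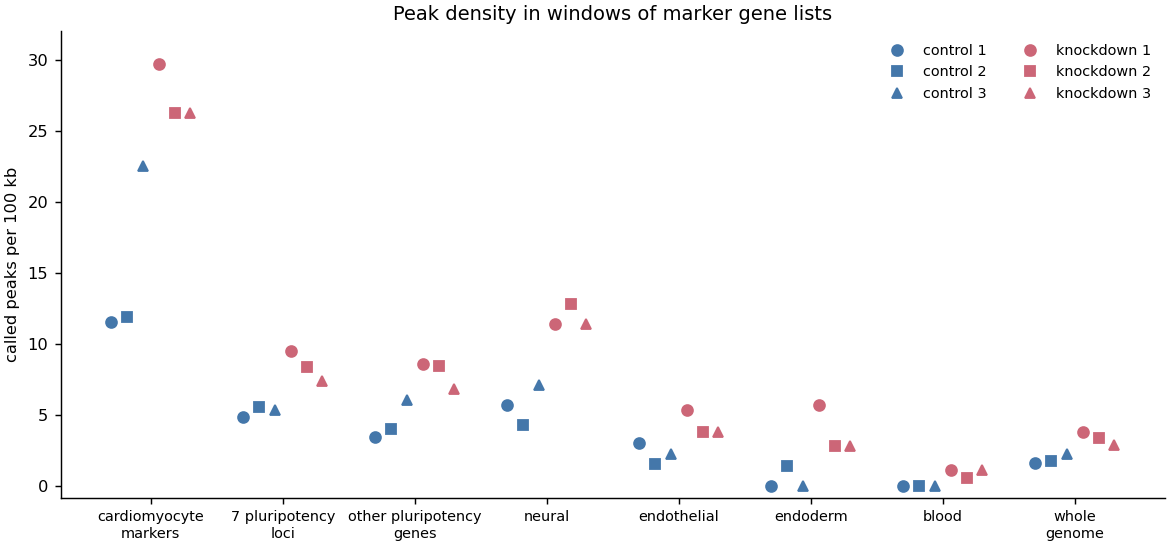
Peaks per 100 kb in each library for the 7 pluripotency loci, the cardiomyocyte windows, the other window lists and the whole genome, controls in blue and knockdowns in red. The pluripotency loci lie at 4.88 to 9.53, below the cardiomyocyte windows at 11.6 to 29.7 in the same plot and above the genome at 1.66 to 3.81. The neural windows lie at 4.29 to 12.9.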

How the data were processed

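Peak lists of 6 ATAC-seq libraries (3 control, 3 ZNF436 knockdown) were used, 1 list per library. Alignment with Bowtie2 2.4.5 to hg19 and handling with bedtools 2.30.0 are per the submitters' processing notes; peak names in the deposited lists begin with MACS, while for its version, thresholds, read filters and Tn5 shift the sources used here give nothing. Each peak's score, a whole number deposited by the authors, served to order the peaks of 1 list and was never compared between lists as it stands. The lists carry no read counts, so depth is unknown and a missing peak may be signal under the calling limit.

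Peaks were assigned to a window by midpoint and merged over libraries where they overlapped by at least 1 bp. Totals were compared by two-sided exact permutation tests over libraries. For the window fit, log2((peaks + 0.5) / list length × median list length) was computed over 50 kb tiles and the gene windows with a mean of at least 2 peaks and fitted with limma 3.58.1 (R 4.3.3; trended, robust), with Benjamini-Hochberg adjustment at 0.05. The scripts (Python 3.11.15) were tested on simulated data. All 7 members are named. Regions are named where called in all libraries of 1 group and none of the other, or in all 6, otherwise the one called in most libraries. At NANOG and TDGF1, 1 further region each is named beside these. Of other lists, windows with the most and the fewest peaks are named. The members and lists were chosen with earlier results of these data known, and the windows of the other lists were placed by hand without an hg19 annotation. Alternatives were lists of equal length, the stronger 50% of each list, other windows, tiles, pseudocounts, filters and scalings, a replicate block and leaving out each library.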

Additional observations from a re-analysis of the deposited data

How the results depend on the processing

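Many results depended on list length. On lists of equal length the ratio of total peaks was 0.967, the difference in median score percentile -9.63 points and the ratio of pluripotency to cardiomyocyte peaks 1.08, each with the sign turned. Covered bases stayed higher in the knockdowns on those lists, at a ratio of 1.27 (exact permutation test p = 0.1). With the stronger 50% of each list the percentile difference was -2.53. Loci with more peaks in every knockdown than in any control numbered 2, and 1 on equal lists (NANOG, with DPPA4 the other way), 4 with windows widened 2 times, 1 without DNMT3B (a setting chosen after seeing the data) and 2 to 5 with a library left out. The share over all windows was not taken with widened windows or with a library left out, so those counts are not a result about the members. Knockdown-only regions numbered 5, and 0 on equal lists, 1 in the stronger 50%, 3 without DNMT3B and 5 to 11 with a library left out. Over all regions the share was 7.72% in the main setting and 3.067% on equal lists. It was not taken in the stronger 50% or with a library left out, so those counts are likewise not a result about the members. Where 2 of 3 libraries sufficed, knockdown-only regions numbered 11 of 48, against 30254 of all 157560 regions. Control-only regions numbered 1 on equal lists. In the window fit, no scaling gave 1 member higher (DNMT3B, 0.67), with 22.0% of all windows, and a pseudocount of 1 gave 1 lower (LIN28A), with 12.3% of all windows. Of the other pluripotency genes, no scaling gave 3 higher and 0 lower, where 22.0% and 0.208% of all windows were called. Lower calls were 0 on equal lists and with the inner 50% of windows, where 1.54% and 5.68% of all windows were called lower. They were 2 in the stronger 50% (30.3% of all windows), with widened windows (5.69%) and with a pseudocount of 1 (12.3%). They were 1 to 2 with a library left out (2 without control replicate 3, with 7.66% of all windows). TERT had too few peaks to be tested on equal lists, in the stronger 50% and with the inner 50% of windows, so its call was not repeated there. With a library left out, the ratio of total peaks ranged from 1.50 to 1.70, that of shares from 0.828 to 0.950, that of covered bases from 1.66 to 1.92 and that to cardiomyocyte peaks from 0.690 to 0.933, and the percentile difference from 5.34 to 8.61 points. The cause of these changes was not tested, other than that equal lists hold fewer knockdown peaks by construction.

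With the replicate number as a block, the ratio of total peaks was 1.60 (exact permutation p = 0.25, the smallest 3 pairs can give), that of shares 0.899, that of covered bases 1.80, that to cardiomyocyte peaks 0.851 and the percentile difference 6.48 points, and the fit called 0 members. Libraries with the same number did not deviate together (correlations of -0.02, 0.04 and 0.00), so the numbers were not taken as pairs.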
